A study of Mus musculus with 2 samples.

Results

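A set of 132 thymic cells held Arg1 transcripts together with monocyte transcripts, out of 19019 cells that carried a single genotype hashtag. These cells, called Arg1 monocytes here, were chosen from raw UMI counts, a UMI being 1 captured transcript. Each held at least 1 UMI of Arg1 and at least 1 of Vcan, Fn1 and F13a1 summed. Each held no more than 1 UMI of Xcr1 and Clec9a (type 1 dendritic cells), of Ccr7 and Fscn1 (activated dendritic cells) and of Cd3d, Cd3e and Cd3g (T cells). They were set against Mgl2DTR monocytes that held 3 or more UMIs of Vcan, Fn1 and F13a1, no Arg1 UMI and the same exclusions. The choice rests on measured values, so the levels of Arg1, Vcan, Fn1 and F13a1 below are a description.

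The study profiled myeloid cells of the thymus from 7-week-old Mgl2DTR_eGFP mice given 500 ng of diphtheria toxin, 48 hours before, and from WT mice of that age. The sample title names the WT mice B6WT, with B6 as the strain. By its name, the Mgl2DTR_eGFP allele links Mgl2 to the toxin receptor, so that the toxin reaches cells that express Mgl2. The treatment text names toxin for the Mgl2DTR mice, and the labels leave unclear whether WT mice received it. In both genotypes CD90.2-bearing thymocytes were depleted and live cells were sorted after staining for CD11c and CD11b. Cells of both genotypes ran as 1 droplet pool, no animals are named, and each genotype counts as 1 sample. No test between genotypes or cell groups is therefore possible, and each interval given is an exact 95% interval that covers counting error only.

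Arginase 1, encoded by Arg1, splits arginine into ornithine and urea, and in mouse macrophages it is a classic target of IL-4 and IL-13 and is also induced by hypoxia and by uptake of dying cells. Monocytes leave the bone marrow with Ly6c2 and Ccr2 and, inside a tissue, lose Ly6c2 as they take on macrophage genes. Macrophages that clear dying cells use scavenger receptors such as Cd36 and lysosomal proteases.

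The genotype of a cell was read from a hashtag oligonucleotide, shown because every genotype comparison rests on these letters.
Mgl2DTR hashtag: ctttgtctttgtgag
B6WT hashtag: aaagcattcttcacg
The Mgl2DTR Arg1 monocytes held a median of 717 UMIs of their own hashtag and 24 of the WT hashtag.

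Nearly all Arg1 monocytes came from Mgl2DTR thymus. The rule found 131 of 7433 Mgl2DTR cells, or 1.76% (1.48 to 2.09), and 1 of 11586 WT cells, or 0.00863% (0.000219 to 0.0481), a ratio of 204 (36.0 to 8126). The single WT cell held 1 Arg1 UMI among 7290. Monocytes themselves made up a larger share of Mgl2DTR cells: cells with 3 monocyte UMIs and the exclusions were 6.32% of Mgl2DTR cells and 1.12% of WT cells, a ratio of 5.64 (4.63 to 6.90). Within those cells, 121 of 470 Mgl2DTR monocytes held an Arg1 UMI, or 25.7% (21.8 to 29.9), and 1 of 130 WT monocytes did, or 0.769% (0.0195 to 4.21). The Mgl2DTR monocytes had a median of 9560 UMIs and the WT monocytes 6381. When each cell was thinned to 3000 UMIs, 79 of 433 Mgl2DTR monocytes held Arg1, or 18.2%. Of 122 WT monocytes 0 did, with an upper limit of 2.98%. So both the share of monocytes and the share of them with Arg1 were higher among Mgl2DTR cells.

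Outside these cells Arg1 was sparse. Of all other cells, 36 of 7302 Mgl2DTR cells held an Arg1 UMI, or 0.493%, and 52 of 11585 WT cells did, or 0.449%. Among T cells, which should lack the gene, the share was 0.649% of 770 Mgl2DTR cells at a median of 4199 UMIs and 0.461% of 3034 WT cells at a median of 4974 UMIs. C1q macrophages outside the set, with 10 or more UMIs of C1qa, C1qb and C1qc, gave 2.68% of 336 Mgl2DTR cells and 1.77% of 677 WT cells. The Arg1 monocytes held 2616 of the 2807 Arg1 UMIs of Mgl2DTR cells, or 93.2%, while all WT cells together held 100. Of these 100, WT C1q macrophages held 58, with up to 22 in a cell. A few cells outside the set held many, with 20 or more Arg1 UMIs in 4 Mgl2DTR cells and 2 WT cells.

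**Figure D1:**
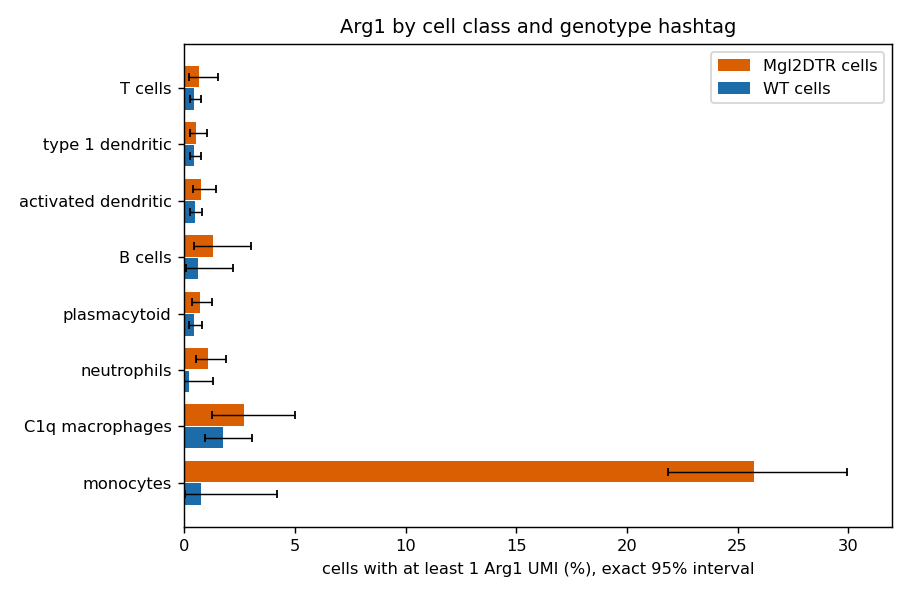
Horizontal bars give the percentage of cells with at least 1 Arg1 UMI in 8 cell classes, Mgl2DTR above WT in each pair, with exact 95% binomial intervals (counting error only). Mgl2DTR monocytes stand at 25.7% and WT monocytes at 0.769%, while every other class lies under 3%. Classes can overlap: Arg1 monocytes were left out of the neutrophils and C1q macrophages only, and some also stand in the plasmacytoid class.

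Arg1 levels differed widely among the 131 Mgl2DTR Arg1 monocytes. The median cell held 9 Arg1 UMIs and the highest 124. There were 35 cells with 1 Arg1 UMI, 18 with 2 to 4 and 78 with 5 or more, and these 78 held 96.7% of the Arg1 UMIs. Median depth was alike in the 3 strata, at 7181, 7335 and 6873 UMIs. At the edge of the rule, 4 cells had 1 monocyte UMI and 6 had 2, while 124 and 39 Mgl2DTR cells with the same 1 or 2 monocyte UMIs and no Arg1 fell outside both groups. A further 12 Mgl2DTR cells with Arg1 failed only because they held no monocyte UMI.

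Monocyte markers were present, with macrophage genes beside them. Of the 131 cells, 105 held Ccr2, the receptor that draws monocytes out of the marrow, and 81 held Ly6c2. A UMI of these genes was also seen in other cells. Ccr2 was seen in 154 of 1043 Mgl2DTR neutrophils (median 3257 UMIs) and 164 of 327 Mgl2DTR C1q macrophages (median 10085 UMIs), and Ly6c2 in 466 of the neutrophils and 143 of the macrophages. C1q, the complement subunits made by tissue macrophages, was seen in 87 Arg1 monocytes, with 10 or more UMIs in 30, and in 281 of the neutrophils. Among markers of other cell types, all 8 mast cell and basophil genes and 5 of 7 eosinophil genes were at 0. Plasmacytoid dendritic cell genes summed to 736 CPM (UMIs scaled to the same total per group) in Arg1 monocytes and 954 CPM in monocytes without Arg1, and B cell genes to 153 and 132 CPM. The rule itself holds down 3 further lists in both groups: type 1 dendritic cell genes summed to 495 and 492 CPM, activated dendritic cell genes to 142 and 85.9 CPM and the 13 T cell genes to 56.5 and 66.0 CPM. Of the Arg1 monocytes 27 held 3 or more UMIs of other cell types' markers, as did 82 of the 349 monocytes without Arg1. Type 2 dendritic cell genes, 10 in all, summed to 102 CPM in Arg1 monocytes and 112 CPM in monocytes without Arg1. Mgl2 stood at 9.43 CPM in Arg1 monocytes and 7.68 CPM in Mgl2DTR monocytes without Arg1, against 334 CPM in WT monocytes without Arg1.

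The 349 comparison cells were a mixture. Neutrophil markers (20 or more UMIs of S100a8 and S100a9 with at least 1 of Csf3r, Cxcr2 and Retnlg) were met by 14 of the 131 Arg1 monocytes and 58 of the 349 monocytes without Arg1. Granule genes of marrow progenitors (2 or more UMIs of Elane, Mpo, Prtn3 and Ctsg) were met by 16 and 80, and 3 or more UMIs of cycling genes by 10 and 96. Median depth was 6889 UMIs (630 to 24662) in Arg1 monocytes and 9844 (638 to 108304) in monocytes without Arg1, and the median mitochondrial share was 1.23% and 1.89%. Gm42418, a locus that picks up ribosomal RNA, stood at 33132 CPM in Arg1 monocytes and 14638 CPM in monocytes without Arg1, and its part in the other differences was not tested. Results are therefore also given for narrowed groups without neutrophil, progenitor, cycling and stromal cells, 97 Arg1 monocytes and 203 monocytes without Arg1, a choice made after seeing the data.

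A gene was called higher or lower where its ratio, with 10 CPM added to both groups, was at least 1.5 in either direction and the interval of the ratio lay on that side of 1. Ratios printed below have nothing added. Of 7369 genes with 50 or more summed UMIs, 822 were higher in Arg1 monocytes (11.2%) and 634 were lower (8.6%). In the narrowed groups 700 of 5162 genes were higher (13.6%) and 468 lower (9.07%), again at 50 or more summed UMIs. Narrowed list counts, list medians and named-gene calls in this comparison instead keep the genes measured in the full groups. The minimum of 50 was not applied anew to them. The median log2 ratio over all genes was 0.05, and 0.04 in the narrowed groups.

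**Figure D2:**
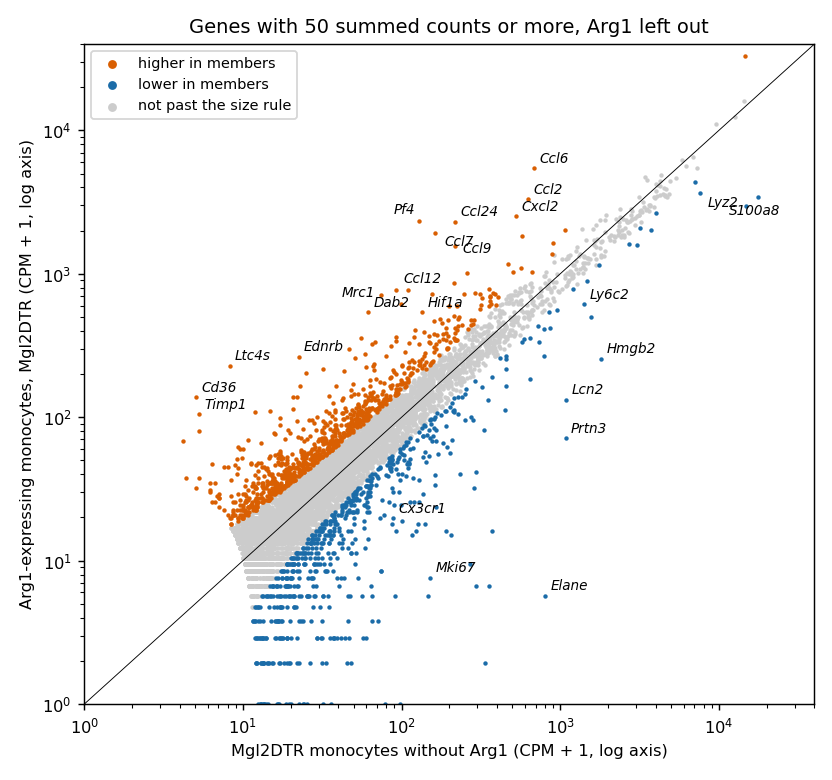
Each point is a gene with 50 or more summed UMIs, its CPM + 1 in Mgl2DTR monocytes without Arg1 on the horizontal axis and in the Arg1 monocytes (the members) on the vertical axis, both log axes. Orange genes (822) were higher and blue genes (634) lower, the line marks equal levels, and chemokine genes such as Pf4, Ccl7, Ccl24 and Ccl6 sit well above it.

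Chemokines led the genes that were higher. Among the 12 that ranked highest by the ratio with 10 CPM added, Pf4 (platelet factor 4, also made by some tissue macrophages) stood at 2334 CPM (2243 to 2427) in Arg1 monocytes and 128 CPM (118 to 139) in monocytes without Arg1, 18.2-fold. Ccl7, a monocyte attractant, stood at 1919 CPM in Arg1 monocytes and 162 CPM in monocytes without Arg1, 11.8-fold (10.8 to 12.9). Ccl24, an eosinophil attractant induced by IL-4, stood at 2304 and 215 CPM, 10.7-fold (9.94 to 11.6). Ccl6 reached 5433 CPM in Arg1 monocytes and 679 CPM in monocytes without Arg1 and was held by 97.7% and 88.0% of cells. Ccl9 and Ccl12 were 7.23-fold and 8.41-fold higher. A UMI of Pf4 was seen in 54.2% of Arg1 monocytes and 7.74% of monocytes without Arg1, and after thinning in 45.1% and 3.86%.

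The other leading genes work at the cell surface, in lipid handling or in the matrix. Mrc1, the mannose receptor, stood at 713 CPM in Arg1 monocytes and 73.2 CPM in monocytes without Arg1. Cd36, a scavenger receptor for lipids and dying cells, stood at 136 and 4.07 CPM, 33.5-fold (20.5 to 58.2). Ltc4s, which makes leukotriene C4, stood at 228 and 7.23 CPM, 31.5-fold (21.7 to 47.1). Ednrb, an endothelin receptor, and Dab2, an endocytic adaptor, were 12.2-fold and 8.93-fold higher. Timp1, an inhibitor of metalloproteinases, stood at 104 CPM in Arg1 monocytes and 4.29 CPM in monocytes without Arg1. All 12 leading genes were also called higher in the narrowed groups, where Pf4 was 24.1-fold and Ccl7 7.22-fold higher. The leading genes were picked from these same Arg1 monocytes. This count of them, and the counts in later comparisons, are therefore a description and no independent check.

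Of 11 measured chemokines on a list of monocyte and T cell attractants, 7 were higher and 2 lower, and the median gene had a log2 ratio of 2.39 (1.75 in the narrowed groups). Ccl2, the main ligand of Ccr2, stood at 3322 CPM in Arg1 monocytes and 626 CPM in monocytes without Arg1. The genes that were lower were Cxcl9 and Cxcl10, both interferon-induced T cell attractants, the second at 28.2 and 60.6 CPM. Several lie side by side in the genome. On chromosome 11 of GRCm38, Ccl2 (start 82035571), Ccl7, Ccl12 and Ccl8 (end 82116799) were all higher (Ccl11 between them had too few UMIs), and so were Ccl9 and Ccl6 (83572919 to 83593087). Their neighbours Ccl5, Ccl3 and Ccl4 did not pass, at 1.47-fold, 1.25-fold and 1.47-fold. On chromosome 5, Pf4 (90772435 to 90773383), Cxcl3, Cxcl1 and Cxcl2 (90903871 to 90905938) were all higher, Cxcl2 at 2509 CPM in Arg1 monocytes and 524 CPM in monocytes without Arg1, 4.79-fold (4.53 to 5.06) and 4.01-fold in the narrowed groups.

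Arg1 itself lies on the minus strand of chromosome 10 (24915221 to 24927484, GENCODE vM21). Promoters of 10 of the 12 leading genes matched RefSeq entries of GRCm38.p6, and 3 are shown since they hold a motif that was searched for, in the 250 bases before the gene's start. Capitals mark TTGCNNAA (the C/EBP consensus) in Pf4 and Dab2 and ACGTG (the core bound by HIF) in Timp1, each read on both strands.
Pf4, chr5:90772185-90772434, plus strand: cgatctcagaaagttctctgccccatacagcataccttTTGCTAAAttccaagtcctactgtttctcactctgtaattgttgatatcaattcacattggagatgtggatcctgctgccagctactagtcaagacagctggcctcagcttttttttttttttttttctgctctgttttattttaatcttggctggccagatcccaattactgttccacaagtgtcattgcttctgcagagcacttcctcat
Dab2, chr15:6299539-6299788, plus strand: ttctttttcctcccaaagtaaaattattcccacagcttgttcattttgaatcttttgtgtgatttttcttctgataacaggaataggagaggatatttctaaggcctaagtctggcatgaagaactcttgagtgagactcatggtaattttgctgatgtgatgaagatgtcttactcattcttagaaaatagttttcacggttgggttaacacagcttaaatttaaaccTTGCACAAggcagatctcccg
Timp1, chrX:20869916-20870165, plus strand: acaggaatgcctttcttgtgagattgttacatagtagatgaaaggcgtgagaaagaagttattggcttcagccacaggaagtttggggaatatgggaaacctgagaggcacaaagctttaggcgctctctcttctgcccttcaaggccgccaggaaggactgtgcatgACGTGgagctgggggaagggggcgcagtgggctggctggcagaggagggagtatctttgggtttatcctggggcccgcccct
TTGCNNAA was found in 2 of the 10 promoters and in 9.55% of all promoters, ACGTG in 1 of 10 and in 16.6%, and the STAT6 pattern, TTC and GAA around any 4 bases, in 0 of 10 and in 5.86%. These matches are a description of letters.

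Macrophage genes were higher as a group. Of 17 measured, 12 were higher and 1 was lower, and the median log2 ratio was 1.13 (1.11 in the narrowed groups). The cutoff of 10 C1q UMIs used for macrophages was met by 30 of the 131 Arg1 monocytes and 26 of the 349 monocytes without Arg1. Narrowing did not leave such cells out, and 21 of 97 and 12 of 203 met it there. The part of those cells in the macrophage genes was not tested. Maf, a transcription factor of tissue macrophages, stood at 616 CPM in Arg1 monocytes and 98.5 CPM in monocytes without Arg1, 6.26-fold (5.53 to 7.08). C1qa stood at 374 CPM in Arg1 monocytes and 166 CPM in monocytes without Arg1. Folr2 was 6.90-fold and the scavenger receptor Cd163 4.80-fold higher, from low levels of 59.3 and 35.8 CPM in Arg1 monocytes. The gene that was lower was Hpgd, which degrades prostaglandins, at 0.941 and 16.0 CPM.

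Genes of circulating monocytes went the other way. Of 20 classical monocyte genes, 11 were lower and 3 were higher, and the median log2 ratio was -0.70. In the narrowed groups 12 were lower and 1 was higher (median -0.91). Ly6c2 stood at 613 CPM in Arg1 monocytes and 1412 CPM in monocytes without Arg1, 0.434-fold (0.400 to 0.470). Lyz2, lysozyme, stood at 3654 and 7633 CPM, and Plac8 at 2008 and 3744 CPM. Ccr2 did not pass, at 810 and 665 CPM. The genes that were higher were Fcgr1, Clec4e and Itgam, which encodes CD11b and stood at 598 CPM in Arg1 monocytes and 222 CPM in monocytes without Arg1. Of 9 non-classical monocyte genes 6 were lower and none of the measured genes was higher, and Cx3cr1, the fractalkine receptor, stood at 18.8 and 87.2 CPM.

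Of the genes in the rule, Vcan, a proteoglycan, stood at 704 CPM in Arg1 monocytes and 360 CPM in monocytes without Arg1. Fn1, fibronectin, stood at 1172 and 470 CPM, and F13a1, a clotting factor subunit, at 339 and 392 CPM.

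Lysosomal, lipid and matrix genes were higher. On the lipid and lysosome list, 14 of 23 measured genes were higher and 0 were lower, and their median log2 ratio was 0.94. The cathepsins Ctsb, Ctsd and Ctsl were 3.20-fold, 3.90-fold and 4.03-fold higher, Ctsd at 1010 CPM in Arg1 monocytes and 259 CPM in monocytes without Arg1. Plin2, which coats lipid droplets, and Lpl, lipoprotein lipase, were 3.04-fold and 2.92-fold higher. Spp1, osteopontin, stood at 357 and 54.7 CPM and was held by 29.8% of Arg1 monocytes and 17.8% of monocytes without Arg1. On the list for matrix, clotting and repair, 10 of 17 were higher and 1 was lower, for a median of 1.02. Mmp19, a matrix protease, stood at 203 CPM in Arg1 monocytes and 24.0 CPM in monocytes without Arg1, and Thbs1, thrombospondin 1, at 328 and 111 CPM. For Mmp12, 97.6% of the Arg1 monocytes' UMIs came from 1 cell, so its ratio of 18.4 describes that cell.

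Of 29 measured genes of hypoxia and glycolysis, 14 were higher and 1 was lower, at a median log2 ratio of 0.58 (0.53 in the narrowed groups). Hif1a, the oxygen-regulated transcription factor subunit, stood at 537 CPM in Arg1 monocytes and 134 CPM in monocytes without Arg1, 4.003-fold (3.56 to 4.50). Hilpda, a HIF target on lipid droplets, was 4.42-fold higher, Bnip3 3.11-fold and the lactate exporter Slc16a3 2.76-fold. In the full groups glycolytic enzymes differed less: Ldha was 1.68-fold and Tpi1 1.82-fold higher, while Gapdh at 0.868-fold and Aldoa at 0.986-fold did not pass. That did not hold for Tpi1 in the narrowed groups. There Tpi1 stood at 333 CPM in Arg1 monocytes and 111 CPM in monocytes without Arg1, and Slc16a3 at 147 and 62.3 CPM. Ldha stood there at 566 and 295 CPM, Gapdh at 1154 and 1133 CPM and Aldoa at 462 and 408 CPM.

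The IL-4 and IL-13 list was split. Of 15 measured genes 6 were higher and 2 lower, and the median log2 ratio of 0.24 lay below the mean of 0.62. In the narrowed groups 6 were higher and 3 lower (median 0.03). Beside Ccl24 and Mrc1, the genes that were higher were Il4ra (the IL-4 receptor chain, 212 CPM in Arg1 monocytes and 66.4 CPM in monocytes without Arg1), Tgm2 (2.91-fold), Ccl22 and Cish. Chil3, a chitinase-like protein, was lower, at 352 and 589 CPM, and so was Cd209a. Retnla, another classic target in mouse macrophages, was nearly absent, at 13.2 and 2.71 CPM, against 2937 CPM in WT monocytes without Arg1.

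Around arginase, the arginine and polyamine genes differed in direction. Of 15 measured genes 2 were higher and 1 was lower, close to the shares over all genes (11.2% and 8.6%), at a median log2 ratio of 0.17. In the narrowed groups 5 were higher and 1 lower (median 0.05), beside 13.6% and 9.07% of all genes. Odc1, which turns ornithine into putrescine, stood at 109 CPM in Arg1 monocytes and 32.3 CPM in monocytes without Arg1, 3.38-fold (2.62 to 4.35), and Srm, spermidine synthase, at 109 and 61.5 CPM. Sat1, which acetylates polyamines for breakdown, stood at 333 and 576 CPM. Nos2, the enzyme that competes with arginase for arginine, had 0 UMIs in the Arg1 monocytes and 0.904 CPM in monocytes without Arg1. The arginine transporter Slc7a2 was at 7.55 CPM in Arg1 monocytes.

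Inflammatory genes were partly higher. Of 20 measured NF-kB and inflammation genes 10 were higher and 0 lower (median log2 ratio 0.59), and 6 were higher in the narrowed groups (median 0.29). Cxcl3 was 7.92-fold, the decoy Il1rn 2.38-fold and Ptgs2, which makes prostaglandins, 2.09-fold higher. Il1b did not pass, at 743 CPM in Arg1 monocytes and 562 CPM in monocytes without Arg1. Of 20 interferon response genes 0 were higher and 2 lower (median -0.11), and in the narrowed groups 10 were lower (median -0.59). Of 11 class II presentation genes 1 was higher and 0 lower, beside 11.2% and 8.6% of all genes. The gene that was higher was Lgmn, a lysosomal protease, at 773 and 109 CPM. Among myeloid transcription factors 5 of 20 were higher, including Bhlhe40 (2.86-fold) and Ets2 (2.18-fold), and Cebpd was lower (0.473-fold). Of these factors 3 in the narrowed groups were higher and 4 lower (median -0.06). Of 11 trafficking and chemoattractant receptors 3 were higher and 4 lower (median 0.18), and in the narrowed groups 3 were higher and 6 lower (median -0.69). Among those that were higher, the complement receptor C5ar1 stood at 257 CPM in Arg1 monocytes and 49.7 CPM in monocytes without Arg1, and the chemokine receptor Ccr1 was 2.12-fold higher.

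**Figure D3:**
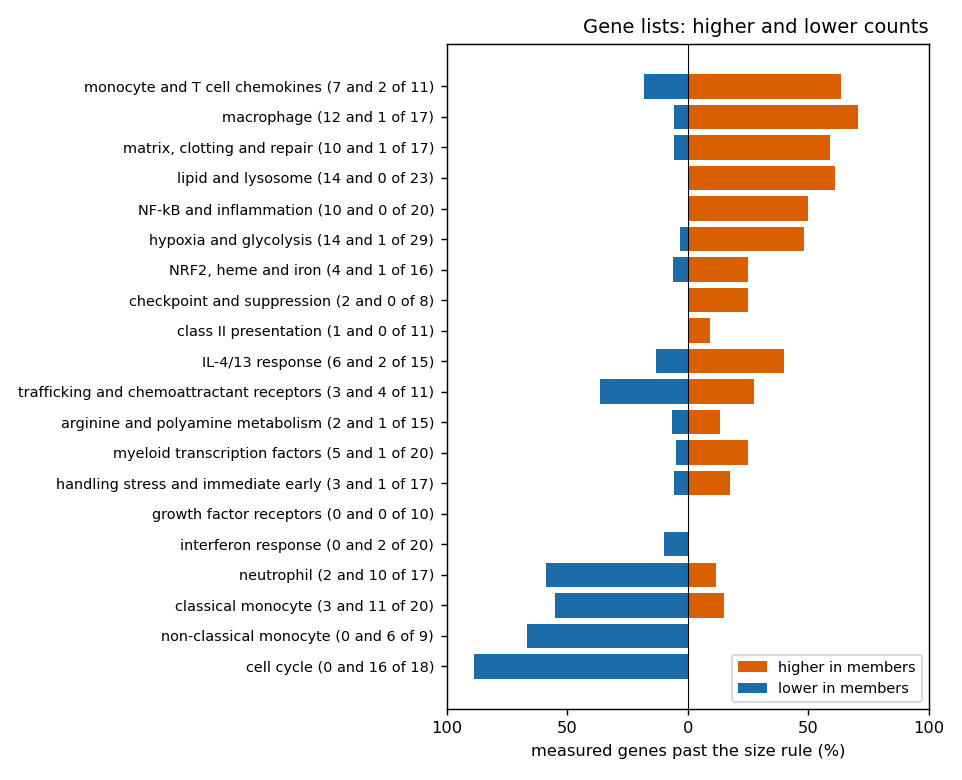
Bars give, for each gene list, the percentage of measured genes higher (orange, right) and lower (blue, left) in the Arg1 monocytes than in Mgl2DTR monocytes without Arg1, ordered by median log2 ratio, with the counts in brackets. Chemokine, macrophage, matrix and lysosome genes lean to higher, at 7 of 11, 12 of 17, 10 of 17 and 14 of 23, and cell cycle genes to lower, at 16 of 18.

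Progenitor, neutrophil and cycling genes made up the lower end. The 12 genes that ranked lowest by the ratio with 10 CPM added were the granule genes Elane, Mpo and Prtn3, the neutrophil gene Lcn2, and the histone and cycling genes Hist1h1b, Hist1h2ap, Hist1h2ae, Mki67, Ube2c, Top2a, Pclaf and Hmgb2. Elane, neutrophil elastase, stood at 4.70 CPM in Arg1 monocytes and 799 CPM in monocytes without Arg1. The narrowed groups were made by leaving out cells with these kinds of transcripts, which lowers such genes in both groups by construction. There 3 of the 12 were called lower, Hist1h1b, Lcn2 and Hmgb2. Of 18 cell cycle genes 16 were lower (median log2 ratio -1.93). In the narrowed groups, where cycling cells are left out, 2 were higher and 1 lower. S100a8 stood at 3455 and 17624 CPM, with 39.8% of the Arg1 monocytes' UMIs from 1 cell, and at 291 and 428 CPM in the narrowed groups, where it did not pass. In the narrowed groups the lowest ratios, named after their values were seen, included Cx3cr1 at 18.0 CPM in Arg1 monocytes and 135 CPM in monocytes without Arg1.

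Levels differed with the number of Arg1 UMIs per cell. Across 0, 1, 2 to 4, and 5 or more Arg1 UMIs (Arg1 left out of the totals), Ccl6 stood at 679, 2563, 3134 and 7303 CPM, Ccl24 at 215, 908, 2291 and 2968 CPM, and Ltc4s at 7.23, 81.9, 101 and 325 CPM. The value was higher at every step, although the Ltc4s intervals at 1 and at 2 to 4 overlap. Pf4 did not, at 128, 1433, 843 and 3093 CPM, nor did Cxcl2, at 524, 1740, 4590 and 2418 CPM. Spp1 stood at 54.7, 27.3, 367 and 509 CPM, so cells with a single Arg1 UMI had no more of it than cells with none. Lyz2 ran 7633, 5040, 6218 and 2456 CPM and Ly6c2 1412, 741, 958 and 479 CPM. Between cells with 5 or more Arg1 UMIs and cells with 1, 226 of 2684 genes were higher (8.42%) and 158 lower (5.89%), and 11 of the 12 leading genes were among the higher. In that comparison, whose levels keep Arg1 in the totals, 11 of 20 classical monocyte genes were lower and 1 was higher. All 6 measured genes on the list of monocyte and T cell attractants were higher, but of chemokines outside that list Ccl3 was lower, at 116 CPM with 5 or more Arg1 UMIs and 256 CPM with 1, and Ccl4 and Cxcl2 did not pass. Neutrophil genes moved with the Arg1 count too, with 5 of 9 higher and 0 lower. Ngp, a neutrophil granule gene, stood at 539 CPM with 5 or more Arg1 UMIs and 34.1 CPM with 1, with 71.5% of its UMIs in Arg1 monocytes from 1 cell, and 10 of the 78 cells and 3 of the 35 met the neutrophil markers. The part of those cells in the other differences was not tested.

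**Figure D4:**
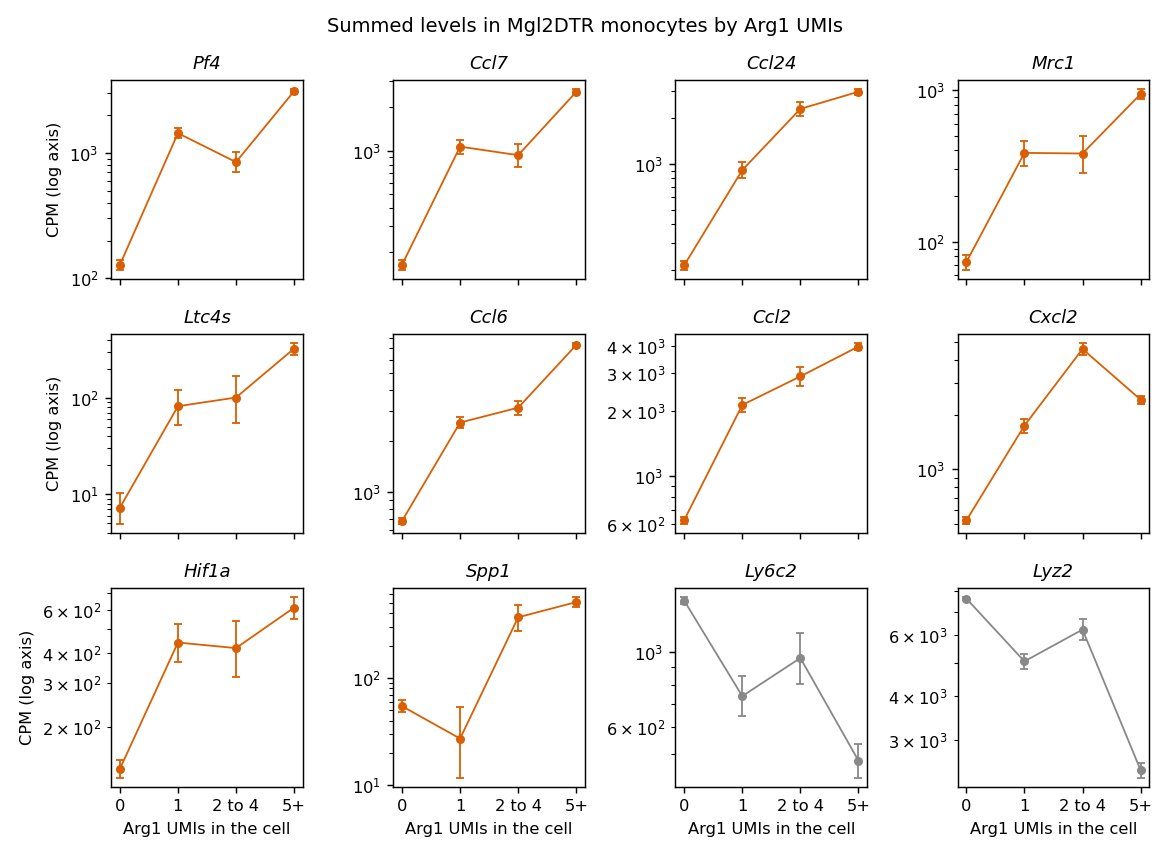
Summed CPM (log axes, exact 95% Poisson intervals) of 12 genes in Mgl2DTR monocytes holding 0, 1, 2 to 4 or 5 and more Arg1 UMIs. Ccl6 reaches 7303 CPM and Ltc4s 325 CPM at 5 or more Arg1 UMIs, while Ly6c2 and Lyz2 (grey) are lowest there, at 479 and 2456 CPM.

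The Arg1 monocytes with and without Ly6c2 differed in chemokine levels, a split chosen after the values were seen. The 81 cells with a Ly6c2 UMI held 859 CPM of Pf4 and the 50 without it 6827 CPM. Ltc4s stood at 97.5 CPM in cells with Ly6c2 and 624 CPM in cells without, Cd36 at 68.7 and 343 CPM, and Ctsd at 644 and 2125 CPM. Ccl24 went the opposite way, at 2918 CPM with Ly6c2 and 434 CPM without, and Ccl2 stood at 3850 and 1713 CPM. Ccl7 and Hif1a did not pass, Ccl7 at 1897 and 1984 CPM and Hif1a at 550 and 499 CPM. Depth moved with the split, at a median of 9576 UMIs with Ly6c2 and 4144 without. After thinning to 3000 UMIs, which left 56 and 46 cells, Pf4 stood at 958 and 5486 CPM and Ccl2 at 3756 and 2022 CPM, both still past the rule, but Ccl24 no longer passed, at 2119 and 1572 CPM. Arg1 stood at 1912 CPM with Ly6c2 and 4135 CPM without. Neutrophil genes were higher with Ly6c2, also after thinning, when Ngp stood at 577 CPM with Ly6c2 and 87.0 CPM without and S100a8 at 3881 and 2217 CPM. Camp and Ltf, further granule genes, were 20.9-fold and 14.4-fold higher after thinning, each over only 2 UMIs in cells without Ly6c2, and 1 cell gave 66.1% and 72.6% of their UMIs in Arg1 monocytes. The part of neutrophil transcripts in the split was not tested. Of platelet genes beside Pf4, Gp9 and Itga2b were at 0 in the Arg1 monocytes and Ppbp held 30 UMIs, under the minimum for a ratio. The list of erythroid and platelet genes, Pf4 and Ppbp among them, summed to 2365 CPM in Arg1 monocytes and 130 CPM in monocytes without Arg1. Pf4 alone stood at 2334 and 128 CPM. A part of platelet transcripts was not tested.

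Macrophages without Arg1 held less of most leading genes. Compared with 327 Mgl2DTR C1q macrophages without Arg1, 888 of 7562 genes were higher (11.7%) and 1071 lower (14.2%), with 11 of the 12 leading genes among the higher. These macrophages were picked by their C1q UMIs without the exclusions, 122 held 3 or more cycling UMIs, and 26 are also monocytes without Arg1. They were chosen to lack Arg1, while 30 of the Arg1 monocytes met the same C1q cutoff and stand on the other side. Class II presentation genes were lower than in macrophages in 11 of 13. Levels here and in the next sentences leave Arg1 out of the totals. H2-Ab1 stood at 667 CPM in Arg1 monocytes and 4852 CPM in macrophages. C1qa stood at 374 and 3593 CPM, a difference that follows from the choice of macrophages. Of 27 hypoxia and glycolysis genes 18 were higher than in macrophages, and of 18 matrix genes 12 were. Mgl2DTR neutrophils, 1043 cells of which 14 are also Arg1 monocytes, also held Cxcl2 and Cxcl3. Cxcl2 stood at 2515 CPM in Arg1 monocytes and 2996 CPM in neutrophils, and Cxcl3 at 109 CPM in Arg1 monocytes and 119 CPM in neutrophils.

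Set against 129 WT monocytes without Arg1, 810 of 4961 genes were higher in Arg1 monocytes (16.3%) and 639 lower (12.9%), and all 12 leading genes were higher. Mrc1 no longer passed in the narrowed groups, at 656 CPM in Arg1 monocytes and 587 CPM in WT monocytes, 1.12-fold (0.968 to 1.29), while the other 11 did. With Arg1 left out of the totals, some leading genes had a level in WT monocytes between those of the 2 Mgl2DTR groups. Pf4 stood at 2339 CPM in Arg1 monocytes, 128 CPM in Mgl2DTR monocytes without Arg1 and 752 CPM in WT monocytes without Arg1. For Mrc1 the levels were 715, 73.2 and 353 CPM, and for Ltc4s 228, 7.23 and 50.4 CPM. Other genes were low in both comparison groups. Ccl7 stood at 1923, 162 and 163 CPM, Timp1 at 105, 4.29 and 3.81 CPM, and Mmp19 at 204, 24.0 and 1.90 CPM. Hypoxia and glycolysis genes were higher than in WT monocytes in 19 of 24 (median log2 ratio 0.99), and macrophage genes lower in 10 of 16 (median -1.07). Of 16 IL-4 and IL-13 genes 5 were higher than in WT monocytes and 7 lower (median -0.45). In the narrowed groups 3 of 15 were higher and 8 lower (median -0.72). The same monocytes without Arg1, Mgl2DTR over WT, had 285 of 7408 genes higher (3.85%) and 551 lower (7.44%), with macrophage genes lower in 15 of 17. Hypoxia and glycolysis genes were higher there too, in 10 of 29 with 0 lower (median log2 ratio 0.47), so that lean was not confined to Arg1 monocytes. In the narrowed groups, Arg1 monocytes over WT monocytes had 683 of 3412 genes higher (20%) and 427 lower (12.5%). Narrowed Mgl2DTR over WT monocytes without Arg1 had 352 of 5034 higher (6.99%) and 409 lower (8.12%). Among these higher genes was Cxcl2, at 568 CPM in Mgl2DTR and 52.6 CPM in WT, and among the lower Pf4, at 112 and 1240 CPM. WT monocytes held a C1q level of 885 CPM for C1qa, and 28 of 129 met the macrophage cutoff of 10 C1q UMIs, so the WT group is mixed as well.

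**Figure D5:**
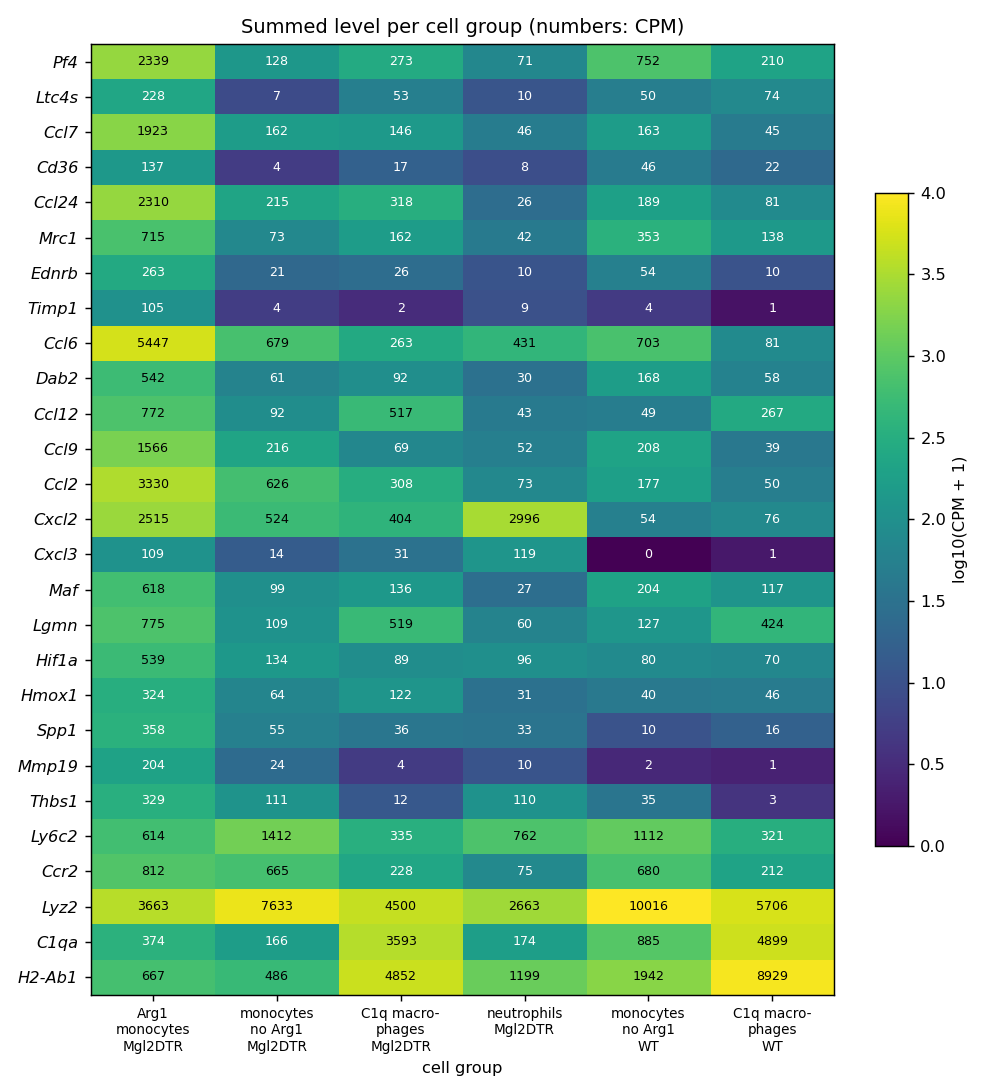
Colours give log10(CPM + 1) and numbers the CPM of the 12 leading genes and other named genes in 6 groups of cells, Arg1 left out of the totals. The Arg1 monocytes (left column) hold the highest level of each leading gene. H2-Ab1 and C1qa are highest in macrophages, at 8929 and 4899 CPM in WT. Macrophages were picked by C1q UMIs, and leading genes by their ratio in the Arg1 monocytes.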

How the data were processed

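Cells were profiled with the 10x Chromium 3′ v3 kit in 1 pool, per the labels' protocols. Cell Ranger 6.0.0, Seurat 4.0.4 and mm10 are named in the submitters' processing notes; no gene annotation is named there. The authors deposited raw counts, whole UMIs of 20451 genes in 28926 cells, and raw hashtag counts, with an annotation whose hashtag call sets the genotype and whose score is the margin between a cell's strongest and second hashtag, deposited by the authors; 7 annotation columns were not used. No barcode was shared between the gene tables. Cells with 2 hashtags (9829) or none (78) were left out; no doublet caller was run, since those with 2 hashtags are doublets or unclear calls, and doublets within a genotype remain. Depth was 71521759 UMIs in 7433 Mgl2DTR and 116719748 in 11586 WT cells.

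UMIs were summed per cell group and scaled to CPM; ratios have exact conditional 95% intervals. A group at 0 counts was set at 3. Named genes were the 12 highest and 12 lowest ratios (10 CPM added) among measured genes held by 10% of cells, leaving out predicted genes, plus up to 4 per list. The members and lists were chosen with earlier results of these data known. In simulated sums for the comparison with monocytes without Arg1, all 100 genes raised and all 100 lowered 3-fold were recovered. Of 6993 unchanged genes 81 were called. These sums held counting error only and no differences between cells. They therefore do not give the rate of false calls for genes carried by few cells. Positions came from GENCODE vM21. Python 3.11.15, numpy 2.4.6, scipy 1.17.1 and pandas 2.3.3 were used. Alternatives were tried for the Arg1 and monocyte minimums, other-type cells, hashtag margin, low-quality cells, scaling, thinning, added CPM and the count filter. Some genes that the rule for named genes takes are not reported here, although they remain in the list counts.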

Additional observations from a re-analysis of the deposited data

Results flagged for a closer look

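Cells with 2 hashtags were left out of every comparison, and some met the same rule. They numbered 17 of 4755 cells with the WT and Mgl2DTR hashtags (0.358%, 0.208 to 0.572) and 14 of 2762 cells with the third and the Mgl2DTR hashtag (0.507%, 0.277 to 0.849). Of 2312 cells with the WT and the third hashtag 0 met it, with an upper limit of 0.159%. They drew attention as a signal in cells outside the main measurement. What the third hashtag marks is not clear from the labels.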

How the results depend on the processing

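The ratio of Mgl2DTR to WT shares (204) kept its direction under every alternative run. Without the lowest 25% of hashtag margins it was 30.1-fold, from 58 Mgl2DTR cells and 0 WT cells set at 3 counts. The 822 genes higher became 509 after thinning and 417 at a minimum of 200 summed counts. The 634 genes lower became 391 without the lowest hashtag margins, 331 after thinning and 285 at 200 counts. With genes measured anew in the narrowed groups, the median log2 ratio of trafficking and chemoattractant receptors was -0.72, that of cell cycle genes turned to 0.34 over 2 genes and that of type 2 dendritic cell genes to 0.04 over 2 genes. The cell cycle median was -1.34 once cells with other types' markers were left out, -1.18 with every cell scaled to 1 total and -2.82 with 1 CPM added. Without the lowest hashtag margins the plasmacytoid median was -0.91 and the type 2 dendritic cell median 0.31 over 1 gene. S100a9 turned to a ratio of 1.09 in the narrowed groups and Ly6d to 1.28 once cells with other types' markers were left out. The cause of these changes was not tested, except that higher count minimums and thinning leave fewer genes measured. Of 91 named genes, 68 kept their direction and call under every alternative with a value. Several alternatives left many of the 91 without a value, and such genes could still count as kept. With genes measured anew in the narrowed groups, 55 kept both, 10 were weaker and 1 turned. After thinning 58 kept both and 4 were weaker, and at 200 summed counts 64 kept both. The remaining genes had no value there. The deposited gene tables split the single-hashtag cells exactly by genotype, so the alternative within each table gives the same value and was not run. No paired analysis was possible because the groups are cells of 1 pool with no replicate samples. Depth limits genes under about 50 summed UMIs and shares near 0.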

Other observations

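Arg1 monocytes with Spp1 (39 cells) and without it (92 cells) differed in a few genes, a split chosen after the values were seen. Ccl24 stood at 1447 CPM with Spp1 and 2831 CPM without, Mmp19 at 277 and 158 CPM, and Folr2 at 104 and 31.9 CPM. S100a8 stood at 6476 and 1601 CPM, and 1 cell gave 39.8% of the S100a8 UMIs of all Arg1 monocytes. Median depth was 9407 UMIs with Spp1 and 6160 without.

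A second split, by 3 or more UMIs of C1qa, C1qb and C1qc, separated 61 cells from 70. Pf4 stood at 4360 CPM in cells with C1q and 866 CPM in those below, Ltc4s at 421 and 87.6 CPM, and Arg1 at 3721 and 1549 CPM. Ccl7, Ccl24 and Hif1a did not pass. Vcan was lower with C1q, at 477 and 868 CPM, and Plac8 at 1120 and 2651 CPM. Depth was 6180 and 8463 UMIs at the median.

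Heme and metal genes were partly higher in Arg1 monocytes, with 4 of 16 measured genes of the NRF2, heme and iron list higher and 1 lower. Hmox1, heme oxygenase 1, stood at 324 CPM in Arg1 monocytes and 64.2 CPM in monocytes without Arg1, and Mt1, a metallothionein, at 682 and 320 CPM. Of 10 growth factor receptor genes 0 passed in either direction, and 2 were lower in the narrowed groups. Among 8 checkpoint genes 2 were higher, with Cd200r1 at 51.8 and 17.9 CPM, but Lilrb4a, at 345 and 216 CPM, was not called in the narrowed groups. Of 17 handling stress genes 3 were higher and 1 lower (median log2 ratio 0.12), beside 11.2% and 8.6% of all genes. In the narrowed groups the median over the same genes was -0.34.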
